A study of Mus musculus with 26 samples.

Results

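Expression of 7 genes for ion transport was followed in the choroid plexus (ChP) of the mouse 4th ventricle. They were chosen by symbol as drivers of cerebrospinal fluid (CSF) secretion. Atp1b1, Atp1b2 and Atp1b3 code for the beta subunits of the sodium-potassium pump and Fxyd1 for one of its regulators, while Slc12a2, Slc12a4 and Slc12a7 code for chloride cotransporters of the SLC12 family. Their Ensembl identifiers are ENSMUSG00000026576 (Atp1b1), ENSMUSG00000041329 (Atp1b2), ENSMUSG00000032412 (Atp1b3), ENSMUSG00000036570 (Fxyd1), ENSMUSG00000024597 (Slc12a2), ENSMUSG00000017765 (Slc12a4) and ENSMUSG00000017756 (Slc12a7). These are 7 of the 55416 genes in the table, and all 7 passed the minimum of expression, which 13697 genes passed.

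The Ctrl group was 12 sham-operated adult male C57Bl6J mice, and the SCNx group was 12 mice of that strain, sex and age class whose suprachiasmatic nuclei (SCN), the central circadian pacemaker, had been destroyed by current on both sides. Both groups had lived in a light-dark cycle before the lights stayed off, and tissue was taken at 12 times 4 h apart, from circadian time (CT) 0 to CT44. Every time of a group rests on a single animal, so p-values measure the spread between mice around a mean or a curve. Around a mean of pooled times this spread also holds any change with the time of day. The KO group was 2 adult male FoxJ1-ERT2-Cre+/-; Bmal1fl/fl mice fed tamoxifen and kept in a light-dark cycle, 1 killed at Zeitgeber time (ZT) 7 and 1 at ZT18. Foxj1 drives the Cre in ciliated epithelia, including that of the ChP, and no mice of this cross without the deletion were analysed here. ChP of Ctrl and SCNx was removed with pincers, whereas that of KO was cut from frozen brain by laser and sequenced with a kit for low input, so KO was read only within its own table.

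The epithelium of the ChP secretes CSF by moving ions from blood to ventricle, with water following. The sodium-potassium pump sits in its apical membrane, where an alpha subunit does the transport, a beta subunit is needed to fold it and bring it to the membrane, and FXYD proteins tune it. Slc12a2 codes for NKCC1, the cotransporter of sodium, potassium and chloride in the same membrane, and Slc12a4 and Slc12a7 for the potassium-chloride cotransporters KCC1 and KCC4. Kinases of the WNK family, through Stk39 (SPAK) and Oxsr1 (OSR1), phosphorylate these cotransporters.

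The circadian activators BMAL1 and CLOCK bind the E-box, so the promoters of the members were searched for it. RefSeq promoter windows, 250 bases before to 50 after a start on GRCm38.p6, were at hand for 5 of the 7 members (Atp1b1, Atp1b3, Fxyd1, Slc12a4 and Slc12a7). The E-box CACGTG, read on both strands, was found in windows of Atp1b3 and Slc12a7, and it occurred in 7.15% of all 32851 windows of 300 bases. Neither the D-box TTATGNAA, found in 3.38% of all windows, nor the cAMP element TGACGTCA, found in 1.79%, occurred in a member's window. The stretches that hold the E-box are shown 5′ to 3′ on the strand of the gene with the E-box in capitals, because of the 3 motifs searched it is the only one found among these windows.
Atp1b3, chr9:96363716-96363965, minus strand, the 250 bases before the second of 2 listed starts: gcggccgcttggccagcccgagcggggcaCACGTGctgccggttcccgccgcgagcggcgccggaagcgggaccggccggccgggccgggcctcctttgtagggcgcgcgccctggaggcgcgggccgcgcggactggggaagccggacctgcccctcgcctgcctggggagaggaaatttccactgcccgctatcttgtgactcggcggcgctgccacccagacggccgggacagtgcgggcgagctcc
Slc12a7, chr13:73763447-73763684, plus strand, 238 bases ending before the second of 2 listed starts: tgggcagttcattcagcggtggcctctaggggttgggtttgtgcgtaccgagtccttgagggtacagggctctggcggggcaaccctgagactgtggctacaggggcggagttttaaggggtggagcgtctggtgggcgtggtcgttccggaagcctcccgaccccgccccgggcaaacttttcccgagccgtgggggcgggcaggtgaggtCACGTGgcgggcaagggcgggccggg
In Atp1b3 the E-box began 221 bases before the second start, and the window of the first start held none. In Slc12a7 it began 1 base before the first start and 38 bases before the second. These matches are letters in a window, and binding was not measured.

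The libraries of Ctrl held 38751201 to 47335258 estimated counts, those of SCNx 41807043 to 49527655, and those of KO 17425207 and 18059227. Counts were scaled to a common library total (CPM), and 10 markers of ChP epithelium together reached 143000 to 166000 CPM in Ctrl and 106000 to 167000 in SCNx. Ctrl CT4 and SCNx CT32 stood apart, with 793 and 1040 CPM of 6 astrocyte markers against 35.6 to 156 in the other libraries, and SCNx CT32 was also the library with the least epithelial signal. Ctrl CT16 and SCNx CT0 held 2030 and 11600 CPM of 8 hepatocyte markers against at most 31.3 in the others. Of the astrocyte, neuron and hepatocyte markers none was at 0 throughout. Where a member's value moved most with these libraries, it is given with and without them. The clock genes Nr1d1, Arntl and Dbp had log2 amplitudes of 2.45, 2.23 and 2.05 in Ctrl and of 0.29, 0.48 and 0.66 in SCNx, which sets a scale for the members.

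The beta subunit Atp1b1 was by far the most abundant member. Levels of different genes were compared as CPM per kb of exon, where Atp1b1 had 683 ± 34.1 in Ctrl (SD, n = 12). Among the beta subunits Atp1b1 made up 70.9% ± 1.63 of the summed CPM per kb in Ctrl, Atp1b3 17.3% ± 0.953 and Atp1b2 11.8% ± 1.18. In SCNx the shares were 70.8% ± 1.02, 17.2% ± 0.643 and 12.0% ± 1.28. The shares of each subunit overlapped between the groups, and their means differed by less than the SD.

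Below Atp1b1 followed, in Ctrl, Fxyd1 with 228 ± 14 CPM per kb, Slc12a2 with 210 ± 24.6, Atp1b3 with 167 ± 11.4, Atp1b2 with 114 ± 12.2, Slc12a4 with 80.3 ± 7.19 and Slc12a7 with 12.4 ± 0.958. The order of the means was the same in SCNx. The gap between Atp1b1 and Fxyd1 was 3-fold, and their ranges were apart in both groups. Fxyd1 and Slc12a2 were the closest neighbours, with overlapping ranges and Fxyd1 the higher in 9 of 12 Ctrl libraries. Over its longest transcript alone Fxyd1 had 379 CPM per kb, which leaves it below Atp1b1 and farther above Slc12a2. Slc12a2 and Atp1b3 also overlapped, with Slc12a2 higher in 11 of 12 Ctrl libraries. Slc12a4 exceeded Slc12a7 6.49-fold with no overlap, so that KCC1 was the more abundant of both potassium-chloride cotransporters of the list.

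**Figure D1:**
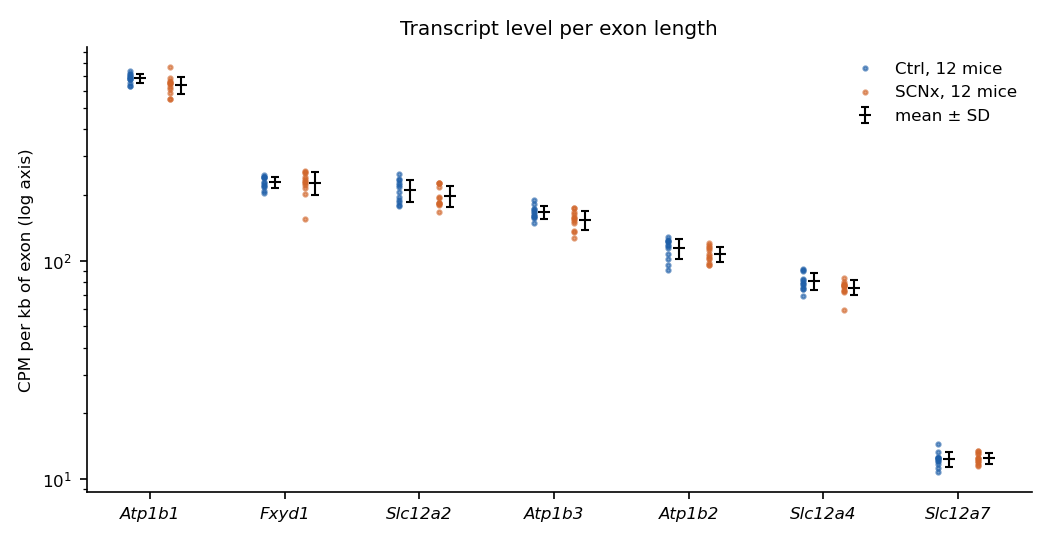
Level of the 7 members in CPM per kb of exon on a log axis, with 1 point per mouse and the mean ± SD of 12 Ctrl and 12 SCNx mice beside the points. Atp1b1 lies above all others and Slc12a7 below all others in both groups.

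The first comparison asked whether the lesion altered the level of the members when the times of each group were pooled. No member passed the threshold of an adjusted p of 0.05 in edgeR's quasi-likelihood test, and 0% of the 13697 tested genes did. At an unadjusted p under 0.05 there were 2 members, Atp1b1 and Atp1b3, against 9.37% of all tested genes, which were 1283. DESeq2 called 14 of the tested genes and limma-trend 0, and neither called a member.

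Atp1b1 ranged from 1617 to 1913 CPM in Ctrl with a median of 1771, and from 1414 to 1981 in SCNx with a median of 1664. The groups overlapped, although 5 SCNx libraries lay below every Ctrl library and SCNx was lower at 10 of 12 times. Its log2 fold change, SCNx minus Ctrl, was -0.10 ± 0.046 (SE), with a 95% interval of -0.20 to -0.0071 and an adjusted p of 0.495.

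Atp1b3 ranged from 295 to 377 CPM in Ctrl (median 329) and from 254 to 349 in SCNx (median 311). In SCNx 3 libraries lay below all of Ctrl, with CT32 the lowest. The log2 fold change was -0.11 ± 0.050 with an adjusted p of 0.495, and it was -0.092 without Ctrl CT4 and SCNx CT32. Atp1b2, the beta subunit known from glia as an adhesion molecule, ranged from 258 to 366 CPM in Ctrl (median 335) and from 270 to 343 in SCNx (median 302). All its SCNx values lay inside the range of Ctrl, and the log2 fold change was -0.085 ± 0.057 with an adjusted p of 0.658.

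Fxyd1, which codes for phospholemman, ranged from 211 to 253 CPM in Ctrl (median 234) and from 160 to 265 in SCNx (median 237). The groups overlapped widely, and the lowest value belonged to SCNx CT32. The log2 fold change was -0.0064 ± 0.059 with an adjusted p of 0.985, and it was 0.031 without SCNx CT32.

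Slc12a2 ranged from 1156 to 1624 CPM in Ctrl (median 1378) and from 1084 to 1481 in SCNx (median 1232). SCNx CT0 alone lay below all of Ctrl. The log2 fold change was -0.091 ± 0.066 with an adjusted p of 0.680, and it was -0.060 without Ctrl CT16 and SCNx CT0. Slc12a4 ranged from 262 to 348 CPM in Ctrl (median 302) and from 227 to 318 in SCNx (median 293). Its lowest value, again in SCNx CT32, was the only one outside the range of Ctrl, and the log2 fold change was -0.093 ± 0.050 with an adjusted p of 0.575, or -0.070 without it. Slc12a7 ranged from 55.4 to 74.8 CPM in Ctrl (median 63.9) and from 58.8 to 69.5 in SCNx (median 63.7). Its SCNx values lay inside the range of Ctrl, with a log2 fold change of 0.0088 ± 0.039 and an adjusted p of 0.970.

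Of the 7 log2 fold changes 6 were below 0, and so were 5959 of those of all 13697 tested genes. The median of the members was -0.091 against 0.011 over all tested genes. The 10 epithelial markers moved the same way, with a mean log2 difference of their sum of -0.10 between SCNx and Ctrl, and of -0.074 without Ctrl CT4 and SCNx CT32. The summed markers of macrophages and endothelium were higher in SCNx by 0.26 and 0.25 on the log2 scale. Other lists went both ways. The log2 difference was 0.50 for hepatocytes and 0.050 for fibroblasts. It was -0.26 for red blood cells, -0.14 for neurons and cerebellum, -0.073 for oligodendrocytes and -0.0063 for astrocytes. Mean CPM of these lists went the other way, with 882 in Ctrl and 1160 in SCNx for red blood cells. It was 48.6 and 56.4 for neurons and cerebellum, 86.7 and 88.0 for oligodendrocytes, and 127 and 148 for astrocytes. SCNx CT44 alone held 6660 CPM of red blood cell markers, against at most 1530 in Ctrl and 1460 in the rest of SCNx. The part of these markers in the members' values was not tested. In these bulk samples fewer epithelial cells and less RNA per cell cannot be told apart.

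**Figure D2:**
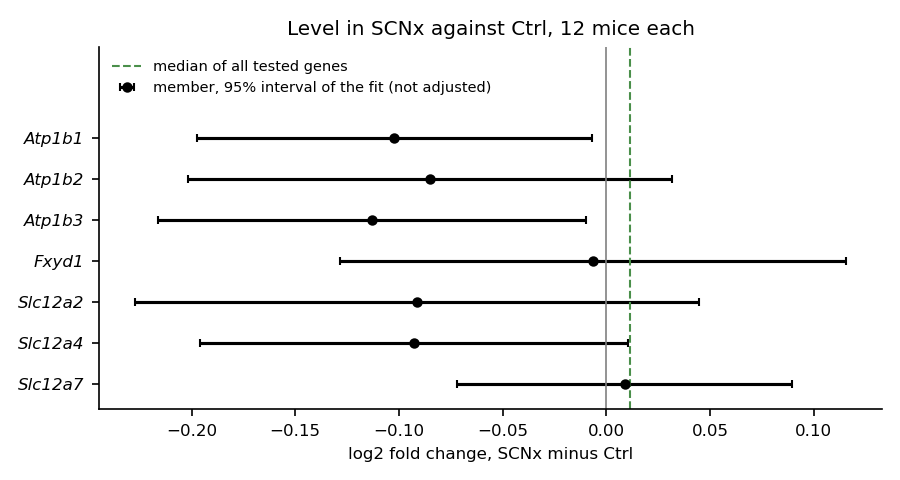
Log2 fold change between SCNx and Ctrl for the 7 members with the unadjusted 95% interval of the edgeR fit (12 mice per group), and the median of all tested genes as a dashed line. The intervals of Atp1b1 and Atp1b3 end below 0, and no member passed after adjustment.

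The second comparison asked whether the members followed a 24 h rhythm. A cosine curve was fitted to each group, and its amplitude is given from mean to peak on the log2 scale. Both curves were part of 1 model with 1 shared estimate of the spread. A library of SCNx can therefore alter a p-value of Ctrl. In Ctrl 1 of 7 members, Atp1b2, was called, while 10.7% of all tested genes were. At an unadjusted p under 0.05 there were 2, Atp1b2 and Slc12a2, against 24.8% of all genes. The median amplitude of the members was 0.10 in Ctrl and 0.084 in SCNx, and that of all tested genes 0.11 and 0.091.

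Atp1b2 in Ctrl was high through the subjective day and low at night. It had 349, 366, 348 and 326 CPM at CT0, CT4, CT8 and CT12, then 289 and 306 at CT16 and CT20. On the second day it had 346, 337, 353 and 332 CPM at CT24, CT28, CT32 and CT36, then 271 and 258 at CT40 and CT44. Every one of the 4 night values was thus below every one of the other 8. The fitted amplitude was 0.19 ± 0.038 (SE) with a peak at 5.4 h and an adjusted p of 0.0041. The call held without any single library, with adjusted p-values of 0.0027 to 0.021. The highest value came from Ctrl CT4, the Ctrl library rich in astrocyte transcripts, and without it and SCNx CT32 the amplitude was 0.18 with an adjusted p of 0.0076. With 6 times of day as a factor in place of the cosine, the adjusted p was 0.0538.

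Slc12a2 in Ctrl had its highest values at CT8 (1624 CPM), CT12 (1541) and CT32 (1532), and its lowest at CT44 (1156), CT24 (1168) and CT20 (1207). Late day was high and late night low in both cycles, although CT0 and CT24 differed, at 1412 and 1168 CPM. Its amplitude was 0.18 ± 0.046 with a peak at 9.9 h, and its adjusted p of 0.0694 missed the threshold. The adjusted p was 0.026 without Ctrl CT0, 0.0147 without SCNx CT0 and 0.0106 without Ctrl CT16 and SCNx CT0, the libraries with hepatocyte transcripts. Without SCNx CT0 the amplitude in Ctrl stayed at 0.182. For 22 of 24 left-out libraries Slc12a2 stayed uncalled, with adjusted p-values up to 0.18. It was called in 5 of 10 other settings, which ranged from 0.0106 to 0.333, and had 0.282 with 6 times of day as a factor.

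Atp1b3 in Ctrl was highest at CT0 and CT24, with 377 and 362 CPM, and lowest at CT12 and CT36, with 295 and 311. Its amplitude of 0.11 ± 0.024 peaked at 0.55 h and had an adjusted p of 0.235. Atp1b3 stayed uncalled in 9 of 10 other settings and with any single library left out. The exception was a separate fit per group, where its adjusted p was 0.0388. Slc12a4 was highest at CT32, CT0 and CT8, with 348, 345 and 343 CPM, and lowest at CT44 with 262, for an amplitude of 0.10 ± 0.047 and an adjusted p of 0.373. Without Ctrl CT4 and SCNx CT32 its amplitude was 0.135 with an adjusted p of 0.038. Slc12a4 stayed uncalled in 9 of 10 other settings and with any single library left out, where the adjusted p was 0.167 to 0.644. Slc12a7 had an amplitude of 0.086 ± 0.041 with an adjusted p of 0.265, and its lowest Ctrl value, 55.4 CPM, was at CT44.

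Atp1b1, the most abundant member, and Fxyd1 had the smallest fitted amplitudes in Ctrl. Atp1b1 had an amplitude of 0.030 ± 0.031 in Ctrl with an adjusted p of 0.905, and its log2 SD over the 12 mice, 0.072, lay at the 8.94th percentile of all tested genes. Fxyd1 had an amplitude of 0.051 ± 0.036 with an adjusted p of 0.817. The amplitude of Atp1b1 went from 0.00945 without Ctrl CT28 to 0.0551 without Ctrl CT0, so the order of both is not settled.

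**Figure D3:**
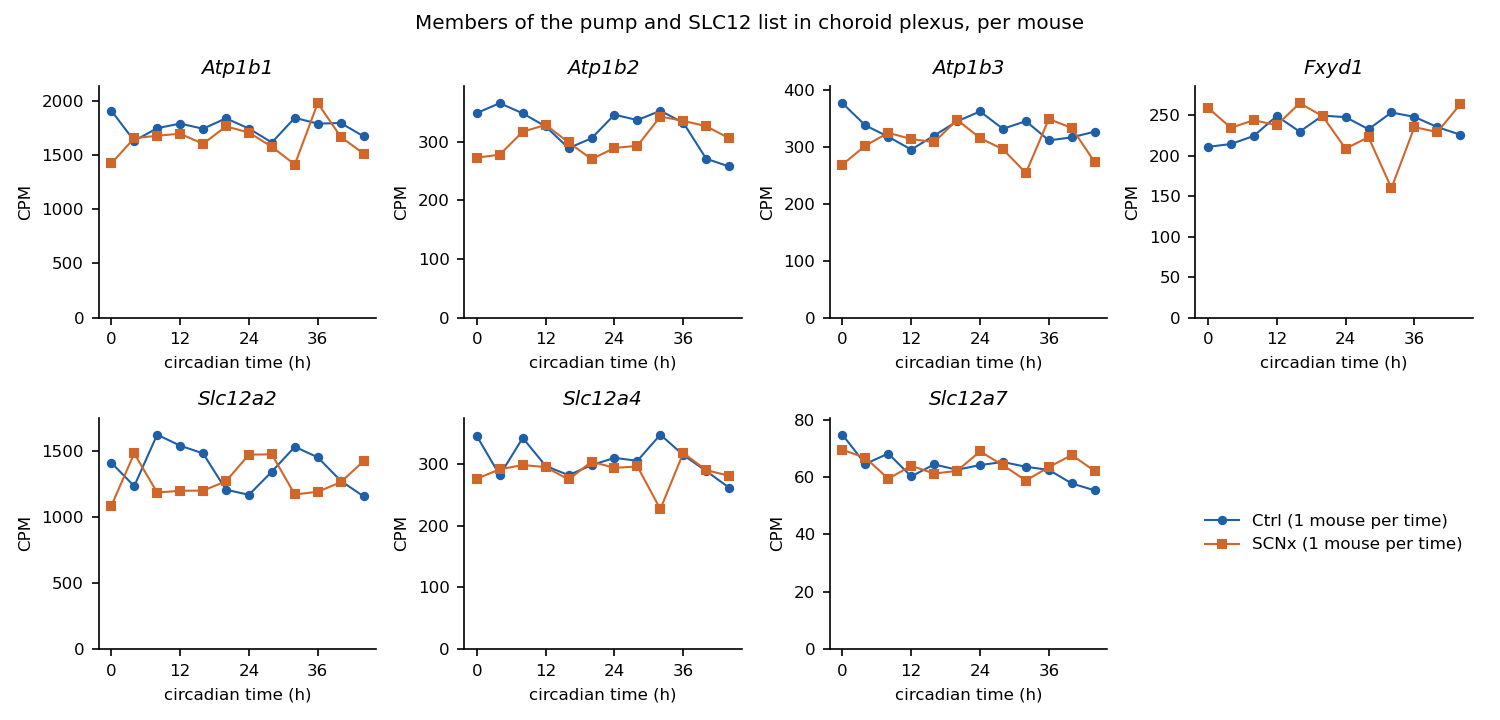
CPM of the 7 members over circadian time, from 0 on each vertical axis, with 1 mouse per point, Ctrl as circles and SCNx as squares. In Ctrl the 4 night values of Atp1b2 are its lowest. In SCNx the values of Fxyd1, Slc12a4, Slc12a7, Atp1b1 and Atp1b3 are lowest at CT32.

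In SCNx no member was called, and 0% of all tested genes were. At an unadjusted p under 0.05 there was 1 member, Atp1b2, against 14.8% of all tested genes, which were 2032. DESeq2 called 432 genes and limma-trend 0, and DESeq2 called 1 member, Atp1b2.

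Atp1b2 in SCNx was lowest at CT20 (270 CPM), CT0 (273) and CT4 (278) and highest at CT32 (343), CT36 (335) and CT12 (329). The early day, at which Ctrl was high, was therefore low in SCNx. The amplitude was 0.14 ± 0.029 with a fitted peak at 11.5 h, and its adjusted p was 0.151. The highest value came from SCNx CT32, the SCNx library rich in astrocyte transcripts, and the amplitude was 0.12 without it. At each of the 6 times of day the second SCNx cycle was higher than the first.

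Slc12a2 in SCNx had 1481, 1473 and 1474 CPM at CT4, CT24 and CT28, its highest values, and 1084 at CT0, its lowest. The amplitude was 0.11 ± 0.061 with a fitted peak at 0.76 h and an adjusted p of 0.448. Without SCNx CT0, the library richest in hepatocyte transcripts, the amplitude of Slc12a2 was 0.179 with an adjusted p of 0.226. The amplitudes of the other members in SCNx lay between 0.027 for Slc12a4 and 0.13 for Fxyd1, with adjusted p-values of 0.391 to 0.925. For Fxyd1 the amplitude was 0.0675 without SCNx CT32.

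Whether the curves differed between Ctrl and SCNx was tested directly. Atp1b2 was the only one of the 7 members called, with an adjusted p of 0.0326, while 2.12% of all tested genes were called. At an unadjusted p under 0.05 there were 3 members, Atp1b2, Slc12a2 and Atp1b3, against 15.1% of all genes. The adjusted p was 0.126 for Slc12a2 and 0.253 for Atp1b3, and the other 4 members had 0.540 to 0.866. The amplitude of Atp1b2 was 0.19 in Ctrl and 0.14 in SCNx, and its fitted peak was at 5.4 h in Ctrl and 11.5 h in SCNx. The summed astrocyte markers had fitted peaks at 5.03 h in Ctrl and 10.3 h in SCNx, with log2 amplitudes of 0.39 and 0.862. Each of these marker curves held 1 extreme library. Ctrl CT4 had 793 CPM against at most 102 in the rest of Ctrl, and SCNx CT32 had 1040 against at most 156. The part of these markers in the curves of Atp1b2 was not tested.

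The call of Atp1b2 lay close to the threshold. Leaving out 1 library gave adjusted p-values of 0.0179 to 0.0741, above 0.05 for 12 of 24 libraries. Among Ctrl these were 0.0563 without CT0, 0.0529 without CT4, 0.0518 without CT12, 0.0571 without CT16, 0.0679 without CT24 and 0.0687 without CT40. Among SCNx they were 0.0550 without CT0, 0.0662 without CT4, 0.0549 without CT12, 0.0507 without CT28, 0.0509 without CT36 and 0.0741 without CT40. It was 0.0273 without Ctrl CT4 and SCNx CT32, the libraries with the most astrocyte transcripts, and 0.0757 without Ctrl CT16 and SCNx CT0. The adjusted p of Atp1b2 was 0.287 with 6 times of day as a factor, 0.0939 without a filter on low counts and 0.0758 with a linear trend added. For Slc12a2 the adjusted p of the difference was 0.0121 without SCNx CT0 and 0.0123 without Ctrl CT16 and SCNx CT0. Slc12a2 stayed uncalled for 23 of 24 left-out libraries, with adjusted p-values up to 0.251. It was also uncalled in 7 of 9 other settings, with 0.315 for 6 times of day as a factor.

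**Figure D4:**
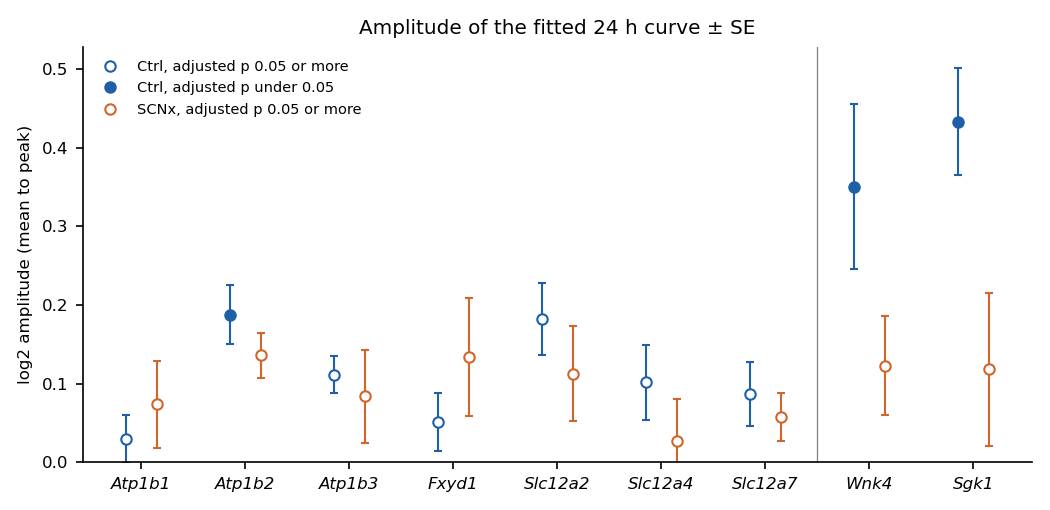
Log2 amplitude of the fitted 24 h curve with its standard error for the 7 members and, right of the line, Wnk4 and Sgk1, in Ctrl and SCNx (12 mice each). Filled points mark the 3 genes called in Ctrl, Atp1b2, Wnk4 and Sgk1, and no point of SCNx is filled.

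Of 26 further genes of the pump, the SLC12 family and their regulators, 18 passed the minimum of expression. In Ctrl 2 of these 18 were called for a rhythm, Sgk1 and Wnk4, both among the 9 regulators, and none of the 5 pump genes or 4 SLC12 genes was, a share close to the 10.7% of all tested genes. None of the 18 was called by edgeR for the level, for a rhythm in SCNx or for the difference. At an unadjusted p under 0.05 the counts were 0, 4 and 3, against 9.37%, 14.8% and 15.1% of all tested genes. DESeq2 called 0, 3 and 2, and limma-trend called 0 in each.

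Sgk1, a kinase induced by glucocorticoids, ranged from 218 to 484 CPM in Ctrl with a median of 305. Its highest value was at CT36 and its lowest at CT24, and SCNx ranged from 234 to 407 with its highest at CT8. The amplitude in Ctrl was 0.43 ± 0.068 with a peak at 11.8 h and an adjusted p of 0.0040, and it was called without any single library but not with 6 times of day as a factor. In SCNx the amplitude was 0.12. Wnk4, a kinase upstream of SPAK, had 37.5 and 38.0 CPM at CT12 and CT36 and 17.4 and 18.0 at CT4 and CT28, its 2 highest and 2 lowest Ctrl values. Its amplitude was 0.35 ± 0.10 with a peak at 13.1 h and an adjusted p of 0.0188, and it was not called without Ctrl CT12, without Ctrl CT36 or with a separate fit per group.

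Cab39l, a scaffold that activates SPAK, was the most abundant of the 9 regulators and was called in no comparison. It had 1284 ± 85.4 CPM in Ctrl and 1260 ± 130.5 in SCNx, with a log2 fold change of -0.027 ± 0.054 (adjusted p of 0.913) and an amplitude of 0.071 in Ctrl (adjusted p of 0.656). Slc12a5, which codes for KCC2 and is known from neurons, reached 35.6 CPM in Ctrl CT4 and 103 in SCNx CT32 against a median of 3.99 in Ctrl. These libraries also held the most neuron markers, 352 and 450 CPM, and their part in the values of Slc12a5 was not tested.

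Within Ctrl the members did not vary together in a way that passed the test. Correlations of log2 CPM over 12 libraries were computed for all 21 pairs in each group with a two-sided permutation test, and p-values were adjusted over the 21 pairs. In Ctrl 0 pairs were called and the median Pearson r was 0.33. In SCNx 3 pairs among Atp1b1, Atp1b3 and Slc12a4 were called. How often pairs of other genes pass was not computed, so these counts are not a trait of the members. The part of the mix of cells in them was not tested.

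Atp1b1 and Atp1b3 were the closest pair in SCNx, with Pearson r of 0.926 (p = 1e-05, the smallest the permutations can give, adjusted 0.00021) and Spearman rho of 0.930 (p = 5e-05, adjusted 0.00105). Without CT32 and CT36, the libraries farthest from the median of Atp1b1, r was 0.923 (adjusted p of 0.00252). CT32 and CT36 were also the SCNx libraries with the lowest and the highest epithelial markers, 106000 and 167000 CPM. Atp1b1 and Slc12a4 had r of 0.800 (p = 0.00179, adjusted 0.0125) and rho of 0.811 (p = 0.00216, adjusted 0.0227), with r of 0.779 without the same libraries (adjusted p of 0.0795). Atp1b3 and Slc12a4 had r of 0.809 (p = 0.00028, adjusted 0.00294) and rho of 0.748 (p = 0.00636, adjusted 0.0445), with r of 0.698 without CT0 and CT32 (adjusted p of 0.134). With 10 libraries the pairs of Slc12a4 with both beta subunits kept an r of similar size and lost the adjusted call.

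Over all 24 libraries the genes most like each member by Spearman rho were listed as a description. All values in a library share its depth and its mix of cells. The genes nearest to Slc12a4 were Slc4a2, an anion exchanger (0.931), and Ano10 (0.880), and those nearest to Slc12a2 were Slc4a10, a sodium-bicarbonate transporter (0.863), and Gxylt1 (0.829). For Atp1b1 they were Cyb561 (0.906) and Mfrp (0.888), and for Atp1b3 Emc7 (0.892) and Pgrmc2 (0.887). For Atp1b2 they were Ric3 (0.819) and Man1c1 (0.803), for Fxyd1 the ATP synthase subunit Atp5o (0.848) and the proteasome subunit Psmd8 (0.830), and for Slc12a7 Col18a1 (0.771) and Bcor (0.750). No member was among the 2 nearest genes of another.

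In KO the targeted gene Arntl (Bmal1) had 11.1 CPM at ZT7 and 8.98 at ZT18, from 184 and 169 counts, and the log2 difference, night minus day, was -0.30. The paper states that part of the Arntl transcript is still present in KO, and that its protein is not functional because an exon is excised. In Ctrl the night minus day difference of Arntl was 2.40, between the mean of CT16, CT20, CT40 and CT44 and that of CT8 and CT32. KO had 1 mouse per time, another light regime and another kit, so no test was possible and its differences are set beside those of Ctrl and SCNx. Over 15051 genes of KO the median absolute log2 difference between both mice was 0.244, and 10% of the genes exceeded 0.707.

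Atp1b2 had 234 CPM at ZT7 and 323 at ZT18 in KO, a log2 difference of 0.46. In Ctrl the difference was -0.32 (-0.23 and -0.42 in the 2 cycles) and in SCNx -0.14 (-0.16 and -0.12). The night value was thus the higher in KO and the lower in both cycles of Ctrl and SCNx. The 6 astrocyte markers summed to 920 and 980 CPM in the KO libraries, at ZT7 and ZT18. Sums were also higher at ZT18 for oligodendrocytes (322 and 428), neurons and cerebellum (288 and 356), fibroblasts (392 and 486) and endothelium (167 and 197). They were lower at ZT18 for epithelium (90400 and 78500), macrophages (60.7 and 56.9) and red blood cells (225 and 210). The part of these markers in the difference of Atp1b2 was not tested.

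Slc12a2 had 1706 CPM at ZT7 and 1240 at ZT18 in KO, a log2 difference of -0.46. In Ctrl it was -0.31 (-0.28 and -0.34) and in SCNx 0.13 (0.059 and 0.20). KO and Ctrl shared the sign for this gene, with the day value the higher. The epithelial markers summed to 90400 CPM at ZT7 and 78500 at ZT18, and their part in this difference was not tested.

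The other members differed less between both KO mice. The log2 differences were 0.22 for Slc12a4, 0.17 for Fxyd1, 0.13 for Atp1b3, 0.064 for Atp1b1 and 0.022 for Slc12a7, all under the median absolute difference of all genes. In Ctrl they were -0.29, -0.021, -0.019, -0.027 and -0.14, in the same order. Atp1b2 and Slc12a2 were thus the only members above that median in KO.

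**Figure D5:**
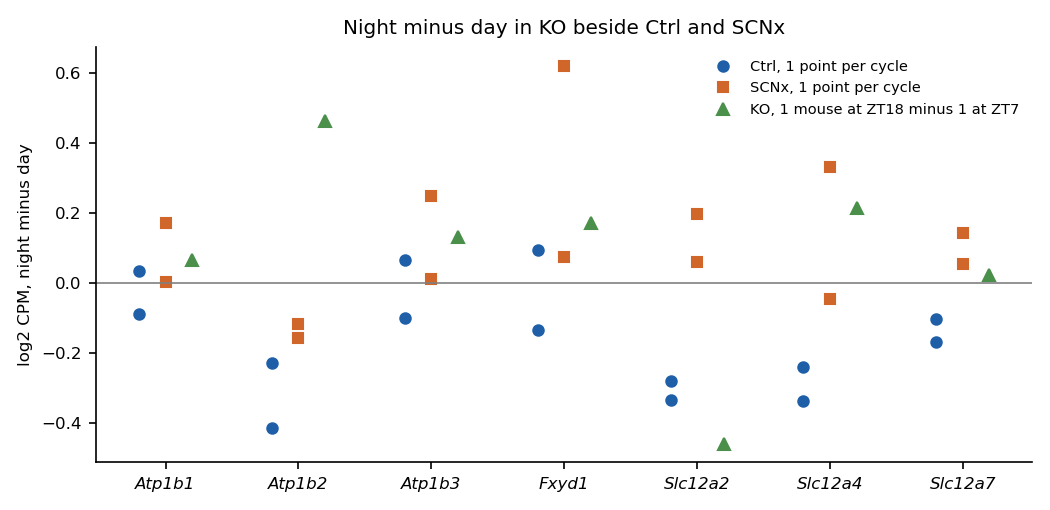
Log2 difference of CPM between night and day for the 7 members, with 1 point per cycle for Ctrl (circles) and SCNx (squares) and the difference between 2 mice for KO (triangles). The triangle of Atp1b2 lies at 0.46 above both circles, and that of Slc12a2 lies at -0.46 below both.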

How the data were processed

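RNA of 26 ChP samples was sequenced after rRNA depletion and enrichment of polyA RNA. The authors mapped the reads with the nf-core/rnaseq pipeline to GRCm39 and deposited Salmon's estimated counts per gene, not normalized. Salmon 1.9.0 and STAR are named in the submitters' processing notes. At most 8.82% of the values of a library were not whole (beyond 0.01), and all were rounded. The deposited KO table of estimated counts was scaled apart from the other.

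Only genes whose mean reached 1 CPM in Ctrl and also in SCNx were tested, TMM factors (0.955 to 1.08) were applied, and edgeR 4.0.16 in R 4.3.3 was used for quasi-likelihood F tests, with 1 mean per group for levels and a mean, cosine and sine of 24 h per group for rhythms. Adjusted p-values follow Benjamini and Hochberg over all 13697 tested genes at a threshold of 0.05. The error of an amplitude was taken from the residuals of log2 CPM. Each mouse was a separate library, and no 2 libraries were identical. For night minus day, a prior count of 1 was added before taking log2 CPM. Exon lengths came from GENCODE M21 by Ensembl identifier, while the files' build is GRCm39. Promoters came from RefSeq on GRCm38.p6. Correlations were tested with 100000 permutations in Python 3.11.15 with numpy 2.4.6.

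The members and lists were chosen with earlier results of these data known. Named were the members, the 2 genes most correlated with each, clock references, and, of 26 genes of the pathway, those called and the most abundant regulator. Slc12a5 was named after its values were seen. Some genes of the lists are counted but not reported here.

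The tests were checked on simulated counts with known changes, where 2.0% to 5.5% of changes of 0.2 on the log2 scale were called. The simulation changed 200 of 13697 genes, drawn at all levels of expression, while 1459 genes were called for the rhythm in Ctrl in the data. Its shares therefore need not hold for the members. The alternatives were DESeq2 1.42.0, its size factors in edgeR, limma-trend (limma 3.58.1), other filters, other curves, blocks and left-out libraries. The smallest count of a member in KO was 816.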

Additional observations from a re-analysis of the deposited data

Results flagged for a closer look

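The curve of Atp1b2 differed between Ctrl and SCNx, with an adjusted p of 0.0326 for the difference in edgeR, but of 0.287 with 6 times of day as a factor, 0.0939 without a filter on low counts and 0.0758 with a linear trend added. The curves of the clock genes Nr1d1, Arntl and Dbp differed as well, with adjusted p-values of 0.000229, 0.000384 and 0.000686.

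Other results stood out because the night minus day difference had opposite signs in all samples compared, and these differences were not tested. In KO the log2 difference was opposite to both cycles of Ctrl for Atp1b2 (0.462), Slc12a4 (0.215), Slc12a7 (0.0219), Dbp (0.226), Arntl (-0.3) and Nr1d1 (0.676). Those of Slc12a4, Slc12a7 and Dbp were under the median absolute difference of 0.244 over all genes of KO. In SCNx both cycles were opposite to both cycles of Ctrl for Slc12a2 (0.127) and Slc12a7 (0.0977). The signs for Slc12a7 rest on values close to 0 in KO.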

How the results depend on the processing

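No member was called for the level under any alternative. For the rhythm in Ctrl, 1 member called became 2 with DESeq2, with a minimum mean CPM of 5, with a linear trend added, without Ctrl CT4 and SCNx CT32, and without Ctrl CT16 and SCNx CT0, 3 with a separate fit per group and 0 with 6 times of day as a factor. The 3 were Atp1b2, Atp1b3 and Slc12a2. Leaving out 1 library gave 1 to 2. For the rhythm in SCNx, 0 became 1 with DESeq2. For the difference of the rhythm, 1 became 2 with DESeq2 and 0 without a filter on low counts, with 6 times of day as a factor or with a linear trend, and leaving out 1 library gave 0 to 1. The count stayed at 1 without Ctrl CT16 and SCNx CT0, and without SCNx CT0 alone. In both cases the member called was Slc12a2, and Atp1b2 was not called. The called pairs of members in SCNx went from 3 to 1 without the 2 libraries farthest from the median. The log2 fold change of Slc12a7 turned to -0.0029 without a filter on low counts and to -0.000925 without Ctrl CT16 and SCNx CT0, and that of Fxyd1 to 0.0198 without Ctrl CT4 and SCNx CT32. With 1 library left out they ranged from -0.0081 to 0.0315 for Slc12a7 and from -0.0239 to 0.0309 for Fxyd1. The cause of these changes was not tested.

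Over all genes, 14 were called for the level with DESeq2 against 0, and 432 with DESeq2 and 1384 without a filter for the rhythm in SCNx against 0. For the rhythm in Ctrl 583 were called with 6 times of day and 2223 without Ctrl CT4 and SCNx CT32 against 1459, and 918 to 2249 with 1 library left out. For the difference 589 were called with DESeq2, 654 without a filter, 78 with 6 times of day and 504 without Ctrl CT4 and SCNx CT32 against 291, and 163 to 466 with 1 library left out.

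With circadian time as a block, 0 members and 0 genes were called for the level, as without it. Ctrl and SCNx mice of 1 time shared only that time: the correlation of their deviations ranged from -0.444 to 0.335, was above 0.1 in 5 of 12 pairs and was best at the own time in 1.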
